A study of Homo sapiens with 6 samples.

Results

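Translation initiation and elongation factors were followed in the A549 line with and without rhSP-D, a recombinant form of human surfactant protein D. The members were the rows of the count table whose gene symbol begins with EIF1 to EIF6, EEF1 or EEF2 and holds only letters and digits, together with TPT1 and PABPC1. Of 174 rows that matched, 4 eIF2 kinase genes (EIF2AK), 111 symbols that end in P and digits, and EIF1AY were left out by the rule. This left 58 members of 57773 genes in the table, and 56 of them were abundant enough to be tested. The symbols that end in P and digits are mostly processed pseudogenes, but 3 of them are the eIF4E-binding protein genes EIF4EBP1, EIF4EBP2 and EIF4EBP3, which are counted below with the wider pathway. A549 is a human lung adenocarcinoma cell line, and SP-D is a collectin that alveolar cells secrete. The treated group (3 samples) received rhSP-D at 10 µg/ml for 48 h and the vehicle group (3 samples) received the elution buffer of that protein alone, in the volume used for the protein. All samples were of 1 cell line, cultured in RPMI-1640 with fetal bovine serum and penicillin-streptomycin, and the labels do not state that replicates are independent cultures. The p-values therefore reflect only how these samples vary, which may be technical.

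Initiation factors bring the initiator tRNA, the small ribosomal subunit and the capped mRNA together, find the start codon and let the large subunit join. Elongation factors then deliver aminoacyl-tRNA (eEF1A, recharged by the eEF1B complex) and move the ribosome along the message (eEF2). The transcripts of the elongation factors, of some eIF3 subunits, of EIF4B, of PABPC1 and of TPT1 belong, with those of the ribosomal proteins, to the terminal oligopyrimidine (TOP) class. Such messages start with a C followed by an unbroken run of pyrimidines, and their translation is known to be governed by the kinase complex mTORC1 and the cap-binding protein LARP1.

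The first bases of the transcripts are shown because this start defines the TOP class. RefSeq promoters (GRCh38.p14) were given for 47 of the 58 members, and each line holds 30 bases of the sense strand, the 10 bases before the annotated start and the first 20 transcribed bases. Capitals mark a C within 3 bases of the annotated start and the run of C and T that follows it without a break, where at least 4 such bases follow. The pattern was searched on the transcribed strand only. Where any annotated start of a gene held the pattern, only starts with it are printed.
EEF1A1 (chr6:73521013-73521042, minus strand): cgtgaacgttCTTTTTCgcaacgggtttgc
EEF1B2 (chr2:206159885-206159914, plus strand): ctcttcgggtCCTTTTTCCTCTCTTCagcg
EEF2 (chr19:3985444-3985473, minus strand): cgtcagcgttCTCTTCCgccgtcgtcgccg
TPT1 (chr13:45341164-45341193, minus strand): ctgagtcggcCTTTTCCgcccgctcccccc
EIF4B (chr12:53006446-53006475, plus strand): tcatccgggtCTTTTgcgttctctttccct
EIF3F (chr11:7987327-7987356, plus strand): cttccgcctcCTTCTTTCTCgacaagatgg
EIF3D (chr22:36529147-36529176, minus strand): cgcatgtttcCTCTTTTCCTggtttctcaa
EIF3K (chr19:38619178-38619207, plus strand): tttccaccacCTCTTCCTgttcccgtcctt
EIF2S3 (chrX:24054946-24054975, plus strand): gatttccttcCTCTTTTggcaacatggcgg
EIF4A2 (chr3:186783567-186783596, plus strand): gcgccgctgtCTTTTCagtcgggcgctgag
EEF1G (chr11:62573872-62573901, minus strand): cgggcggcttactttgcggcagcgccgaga
EIF4A1 (chr17:7572815-7572844, plus strand): ggcactccgccctagtttctaaggatcatg
EIF1 (chr17:41688875-41688904, plus strand): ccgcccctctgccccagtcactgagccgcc
EIF4E (chr4:98929114-98929143, minus strand): tggagcggttgtgcgatcagatcgatctaa
EIF5, start 1 (chr14:103334227-103334256, plus strand): ggcgttgttcagtcagagcgagaacattcc
EIF5, start 2 (chr14:103334878-103334907, plus strand): ggcacccctcggccgtgtgtcgcttcccgg
The first 6 of these members are on the textbook TOP list and hold the pattern. EIF3D, EIF3K, EIF2S3 and EIF4A2 hold it without being on that list. EEF1G is on the list, but at its annotated start the C is followed by only 3 pyrimidines, and EIF4A1, EIF1, EIF4E and both annotated starts of EIF5 lack the pattern. Among the members with a promoter 17 of 47 (36.2%) held the pattern, against 4374 of 27305 genes (16%) in the whole promoter table. A match in these letters is a description of the annotated start and not a measured transcript end.

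Total counts ranged from 11396193 to 26030880, the shallowest library being vehicle replicate 1 and the deepest rhSP-D replicate 1. Libraries were scaled by TMM factors, which were 1.011 to 1.017 in the 3 vehicle libraries and 0.985 to 0.987 in the 3 rhSP-D libraries. Epithelial keratin transcripts were abundant (KRT8 had 58132 to 133428 counts), EPCAM had 17 to 51 counts, and the alveolar type II markers SFTPC, SFTPB and NKX2-1 had 0 to 6 counts, while ABCA3, of the same list, had 938 to 1908. Of the leukocyte markers PTPRC and CD3E had 0 or 1 count, while CD68 had 933 to 2372 (means of 84.4 CPM in vehicle and 92.4 CPM after rhSP-D). Over all genes 2526 of 15848 (15.9%) passed edgeR's quasi-likelihood test at an adjusted p under 0.05 (Benjamini-Hochberg, 2-sided), which is the test behind every adjusted p given here.

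Translation factor transcripts were more often higher than lower after rhSP-D, by small amounts. Of 56 tested members 23 rose and 2 fell, while over all genes tested 9.31% rose and 6.63% fell. The members were not matched to all genes in abundance, and small changes pass more readily in abundant genes. The median log2 change (rhSP-D over vehicle) was 0.07 over the members and -0.01 over all genes tested, and 43 of the 56 lay above 0. In bulk samples a change in the mix or number of cells and a change in RNA per cell cannot be told apart. The median rise among the 23 was 9.32%, with PABPC1 lowest at 3.97%. The 3 rhSP-D values lay above the 3 vehicle values for 25 members and below them for 3, against 16.2% and 15.4% of all genes tested. Scaling by library totals alone, without TMM factors, left 15 members higher and 4 lower, where 5.40% of all genes rose and 12.4% fell, and the medians were 0.03 over the members and -0.05 over all genes. With the DESeq2 Wald test 21 members rose and 2 fell (6.41% and 3.27% of all genes), and with limma-voom 22 rose and 2 fell (8.52% and 5.95%). Of all genes that changed, 58.4% were higher with TMM factors, 30.4% with library totals and 74.8% with length and GC offsets. Of the 25 members that changed, 13 passed in each of 20 other ways of processing the counts: EEF1A1, EEF1A2, EEF1B2, EEF1D, EEF1G, EEF2, TPT1, EIF1, EIF2S2, EIF4A1, EIF4E2 and EIF5A rose and EIF5 fell.

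**Figure D1:**
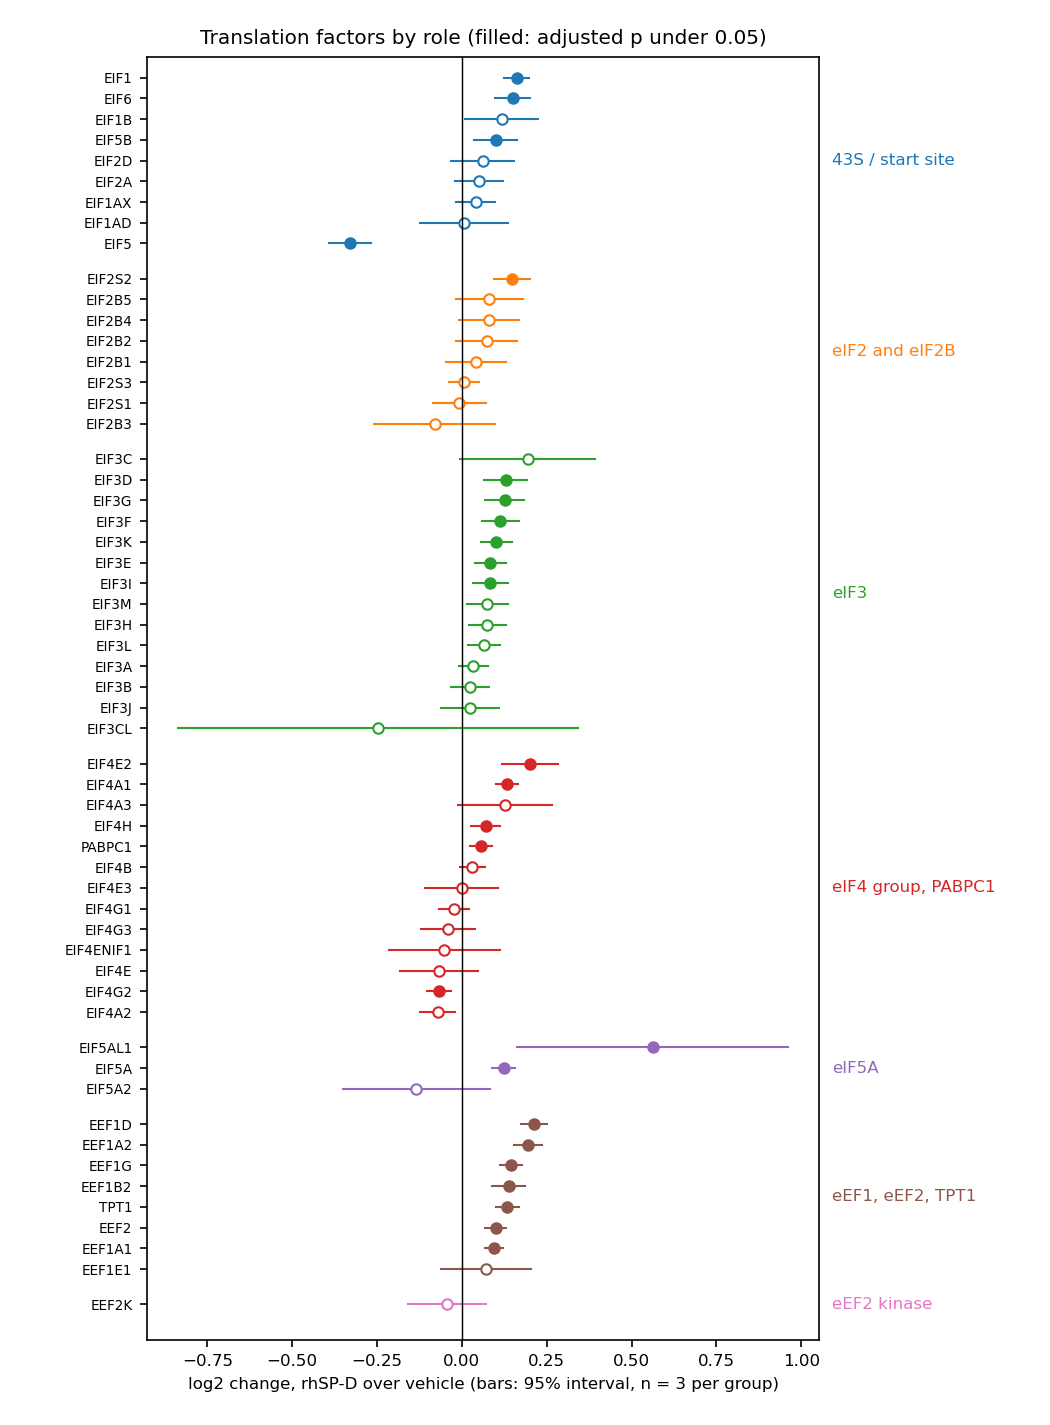
Each point is the log2 change of 1 tested factor (x axis, rhSP-D over vehicle, n = 3 per group), with its 95% interval from the edgeR fit as a bar, grouped by role, and filled where the adjusted p was under 0.05. The elongation factors sit to the right of 0, EIF5 is the lowest point at -0.33, and EIF5AL1 and EIF3CL have the widest intervals.

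Elongation factor transcripts rose almost throughout: 7 of 8 genes in this list (eEF1 subunits, eEF2 and TPT1) were higher and none was lower. Over all genes tested 9.31% rose and 6.63% fell. The median log2 change of the list was 0.14. The counts of the list were the same with library totals alone, where 5.40% of all genes rose and 12.4% fell. EEF1A1, which encodes the factor that carries aminoacyl-tRNA to the ribosome, was the most abundant member per length. Its values in CPM (counts scaled to depth, on library sizes after TMM scaling) were 7859, 7978 and 7810.4 in vehicle (replicates 1, 2 and 3, the order used throughout) and 8381, 8388 and 8464 after rhSP-D. The groups did not overlap, and the rise was 6.71% (0.09 ± 0.01 on the log2 scale, adjusted p = 4.14e-06, where the error is the SE of the fit). EEF1A2 encodes the paralogue best known from muscle and neurons. It was measured at 361, 371 and 369 CPM in vehicle and 423, 420.1 and 418 CPM after rhSP-D, again without overlap, a rise of 14.5% (0.20 ± 0.02 on the log2 scale, adjusted p = 3.63e-08). Counts of EEF1A1 per count of EEF1A2 were 21.8, 21.5 and 21.2 in vehicle and 19.8, 19.97 and 20.3 after rhSP-D, so that every vehicle library had the higher ratio. Per length, EEF1A1 was at 6444 ± 30.5 TPM (transcript abundance scaled to length and depth) in vehicle and EEF1A2 at 343 ± 4.09 TPM (SD, n = 3).

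The 3 subunits of the eEF1B exchange complex, which reloads eEF1A with GTP, all rose. EEF1D, its delta subunit, was at 625, 623 and 611 CPM in vehicle and 726, 698 and 727 CPM after rhSP-D, the largest percentage rise in this list (15.8%, 0.21 ± 0.02 on the log2 scale, adjusted p = 4.43e-09). All 3 rhSP-D libraries were above the highest vehicle library by more than the range within either group. EEF1G, the gamma subunit, went from 1730.3, 1744 and 1689 CPM to 1902, 1881 and 1921 CPM (10.5% higher, 0.14 ± 0.02 on the log2 scale, adjusted p = 1.04e-07), with narrow and separate groups. EEF1B2, the beta subunit with the exchange activity, rose by 10.01% from a mean of 319 CPM. EEF2, the translocase, went from 2104 to 2254 CPM (7.10%, 0.10 ± 0.01 on the log2 scale, adjusted p = 1.74e-05). TPT1, the translationally controlled tumour protein, went from 1627 to 1786 CPM (9.72%, 0.13 ± 0.02 on the log2 scale, adjusted p = 1.50e-06). EEF1E1, which despite its symbol is a scaffold protein of the tRNA synthetase complex, was the 1 gene of the list that did not pass, at 22.2 and 23.3 CPM with a 95% interval from -4.17% to 15.2% (adjusted p = 0.523). EEF2K, the kinase that phosphorylates eEF2 and slows elongation, was at 32.02, 34.02 and 36.4 CPM in vehicle and 35.3, 32.7 and 31.9 CPM after rhSP-D. Those ranges overlapped (adjusted p = 0.665, interval -10.5% to 5.001%).

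**Figure D2:**
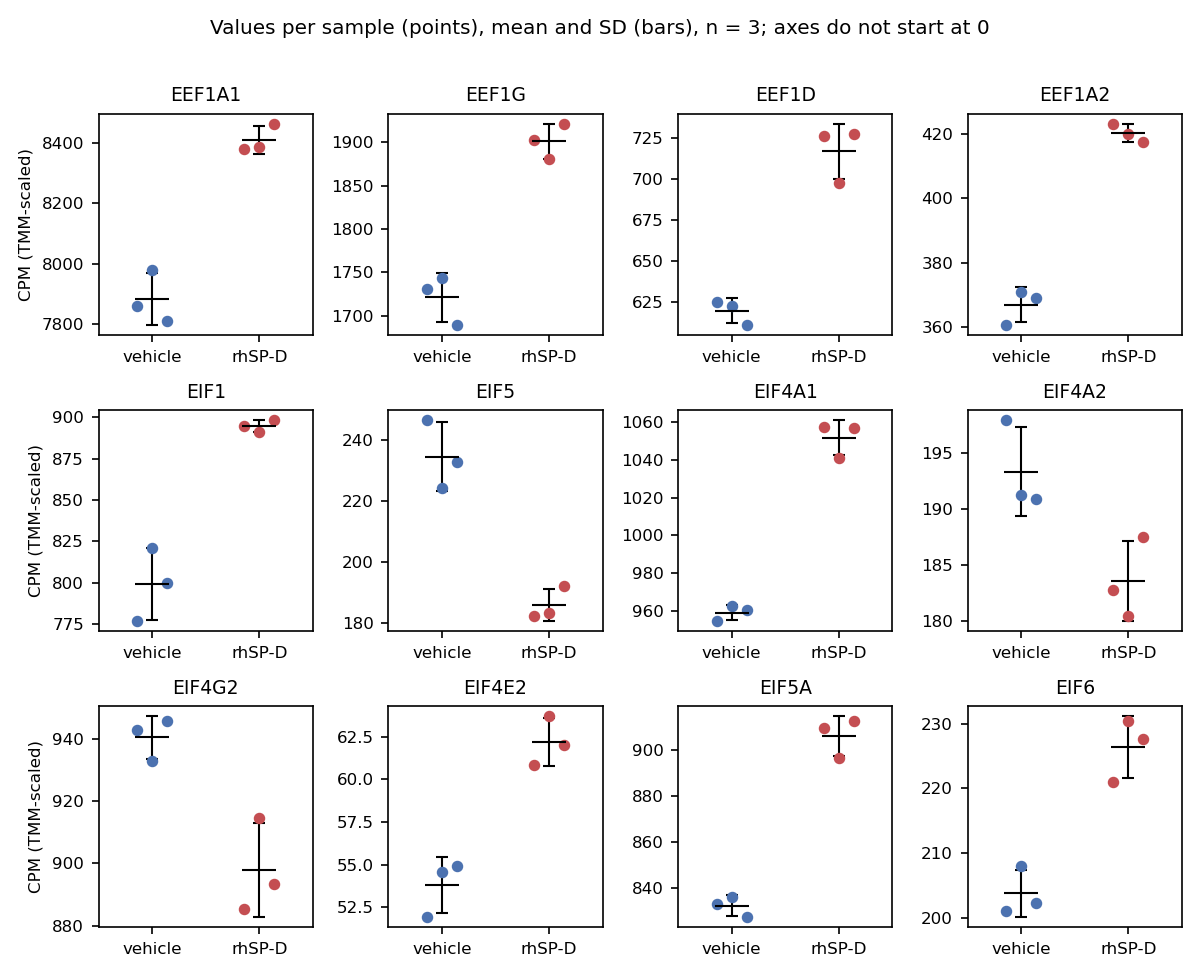
TMM-scaled CPM (y axis, not starting at 0) of 12 factors in each of the 3 vehicle (blue) and 3 rhSP-D (red) samples, with black bars for the mean and SD. The groups do not overlap in any panel, and EIF5, EIF4G2 and EIF4A2 are the ones in which rhSP-D lies lower.

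Among factors that act on start codon selection and subunit joining, EIF1 and EIF5 moved in opposite directions. Of the 9 tested genes of this list 3 rose and 1 fell (9.31% and 6.63% of all genes tested). With library totals alone 2 rose and 1 fell (5.40% and 12.4% of all genes). EIF1 encodes the protein that keeps the scanning ribosome from settling on poor start sites. It was at 777, 821 and 799.999 CPM in vehicle and 894, 891 and 898 CPM after rhSP-D, with rhSP-D higher in every library (11.8%, 0.16 ± 0.02 on the log2 scale, adjusted p = 2.12e-07). EIF5 (chr14:103333544-103345025 in GRCh38, plus strand) encodes the GTPase activator of eIF2, which favours recognition of the start codon and release of eIF1. It was at 246, 224 and 233 CPM in vehicle and only 182, 183 and 192 CPM after rhSP-D, and fell by 20.4% (95% interval -23.8% to -16.9%, -0.33 ± 0.03 on the log2 scale, adjusted p = 3.97e-08). The lowest vehicle library was well above the highest rhSP-D library, and under the 20 other settings the log2 change ran from -0.37 to -0.23. Within a library, where no scaling enters, there were 3.15, 3.66 and 3.44 counts of EIF1 per count of EIF5 in vehicle and 4.90, 4.86 and 4.68 after rhSP-D, so the ratios did not overlap. EIF1B, the near paralogue of EIF1, was at 34.9, 34.5 and 32.3 CPM in vehicle and 37.8, 34.8 and 36.8 CPM after rhSP-D, with overlapping groups, and did not pass (adjusted p = 0.136).

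EIF6, which keeps the large ribosomal subunit from joining too early and takes part in its maturation, was at 201, 208 and 202 CPM in vehicle and 221, 230.4 and 228 CPM after rhSP-D (10.9% higher, 0.15 ± 0.02 on the log2 scale, adjusted p = 7.14e-05). The longest transcript of EIF6 has a GC content of 58.03% (median of the tested members 46.2%), and with offsets for gene length and GC content its log2 change was 0.05 and did not pass (adjusted p = 0.220). EIF5B, the GTPase of subunit joining, rose by 7.16% though its groups overlapped (0.10 ± 0.03 on the log2 scale, adjusted p = 0.0258). That call was lost without vehicle replicate 1 (log2 change 0.09, adjusted p = 0.0923) and without vehicle replicate 2 (0.09, adjusted p = 0.0910). It was also lost without rhSP-D replicate 1, at 0.09 (adjusted p = 0.141), and without rhSP-D replicate 3, at 0.08 (adjusted p = 0.128). With all libraries the call was lost under the DESeq2 Wald test, limma-voom, no robust estimation and library totals alone. EIF1AX, which works with eIF1 in scanning, EIF2A and EIF2D, both linked to unconventional initiation, and EIF1AD, a nuclear protein with an eIF1A-like domain, did not pass, with log2 changes from 0.01 to 0.06.

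The eIF2 complex carries the initiator tRNA, and eIF2B recharges it with GTP. In this list of 9 genes 8 were tested, 1 rose and none fell, where 9.31% of all genes tested rose and 6.63% fell. The gene that rose was EIF2S2, the beta subunit, at 268, 271 and 260.3 CPM in vehicle and 294, 283 and 306 CPM after rhSP-D (10.7%, 0.15 ± 0.03 on the log2 scale, adjusted p = 1.97e-04), with no overlap. EIF2S3, the gamma subunit, was at 305, 305 and 296 CPM in vehicle and 306, 297 and 305 CPM after rhSP-D, a difference within the spread of either group (95% interval -2.65% to 3.63%). EIF2S1, the alpha subunit that stress kinases phosphorylate, was at 99.6 and 98.9 CPM (interval -5.81% to 5.03%). Whether the changes of the 3 subunits differ from each other was not tested. Of the 5 eIF2B subunits, EIF2B4 was at 54.1 and 57.02 CPM and EIF2B5, the catalytic subunit, at 38.9 and 41.2 CPM. EIF2B1, EIF2B2 and EIF2B3 had log2 changes of 0.04, 0.07 and -0.08, and none of the 5 passed. EIF2S3L, a copy of EIF2S3, had 3 to 12 counts per library and was too scarce to test.

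The eIF3 complex is the large scaffold that binds the small subunit and recruits mRNA. Of 14 genes 6 rose and none fell (9.31% and 6.63% of all genes tested), and the median log2 change was 0.08. With library totals alone 2 rose, with a median of 0.04, where 5.40% of all genes rose and 12.4% fell. EIF3K rose by 7.24%, from 338, 354 and 337 CPM to 366, 363 and 375 CPM (0.10 ± 0.02 on the log2 scale, adjusted p = 0.00174). EIF3G, a subunit that binds RNA and takes part in scanning, went from 154, 157 and 150.2 CPM to 165, 171 and 167 CPM (9.09%, 0.13 ± 0.03 on the log2 scale, adjusted p = 0.00158). EIF3F, which is on the TOP list, went from 179, 193 and 192 CPM to 202, 203 and 207 CPM (8.19%, 0.11 ± 0.03 on the log2 scale, adjusted p = 0.00358). None of these groups overlapped in CPM, but in TPM the groups of all 3 genes overlapped. With length and GC offsets EIF3G was at 0.07 and lost its call (adjusted p = 0.118). The calls of EIF3K (log2 change 0.06, adjusted p = 0.0540) and EIF3F (0.07, adjusted p = 0.0598) were lost with library totals alone. EIF3D, a subunit with cap-binding activity, EIF3E and EIF3I rose by 9.32%, 5.999% and 5.98%. EIF3E and EIF3I also lost their calls with library totals alone. Per length, EIF3E had a mean of 312 TPM in both groups and EIF3I a mean of 222 TPM in both. The large core subunits EIF3A and EIF3B were at log2 changes of 0.03 and 0.02 and did not pass (adjusted p = 0.298 and 0.607), and the loosely bound EIF3J was at 0.02. Just short of the threshold were EIF3L (adjusted p = 0.0531) and EIF3H (adjusted p = 0.0572), and EIF3M was at adjusted p = 0.0865. Without rhSP-D replicate 3 the calls of EIF3D (log2 change 0.10, adjusted p = 0.0522), EIF3E (0.07, adjusted p = 0.0725) and EIF3I (0.08, adjusted p = 0.0667) were lost. The call of EIF3I was also lost at adjusted p = 0.0669 with vehicle replicate 3 left out and at adjusted p = 0.0642 with rhSP-D replicate 2 left out (both 0.08). EIF3H passed with vehicle replicate 2 left out (0.10, adjusted p = 0.0138) and EIF3M with rhSP-D replicate 2 left out (0.10, adjusted p = 0.0438).

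EIF3C and EIF3CL are near-identical copies on chromosome 16, and reads could be split between them by chance or by the counting. EIF3CL took 29.4%, 41.6% and 39.6% of their summed counts in vehicle and 35.3%, 25.2% and 30.4% after rhSP-D. EIF3C alone was at 212, 179 and 187 CPM in vehicle and 210.1, 230.1 and 217 CPM after rhSP-D and EIF3CL at 88.3, 128 and 123 CPM in vehicle and 115, 77.6 and 94.96 CPM after rhSP-D, both with overlapping groups. EIF3C passed without vehicle replicate 1 (log2 change 0.26, adjusted p = 1.01e-04, against 0.19 and adjusted p = 0.187 with all libraries). With all libraries it passed under limma-voom, without robust estimation and without the filter on low counts. Summed, a choice made after seeing the data, the pair was at 300.001 to 310.1 CPM in vehicle and 308 to 325 CPM after rhSP-D, with a log2 change of 0.04 ± 0.02 (SE, adjusted p = 0.245), so the single values should be read as uncertain.

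**Figure D3:**
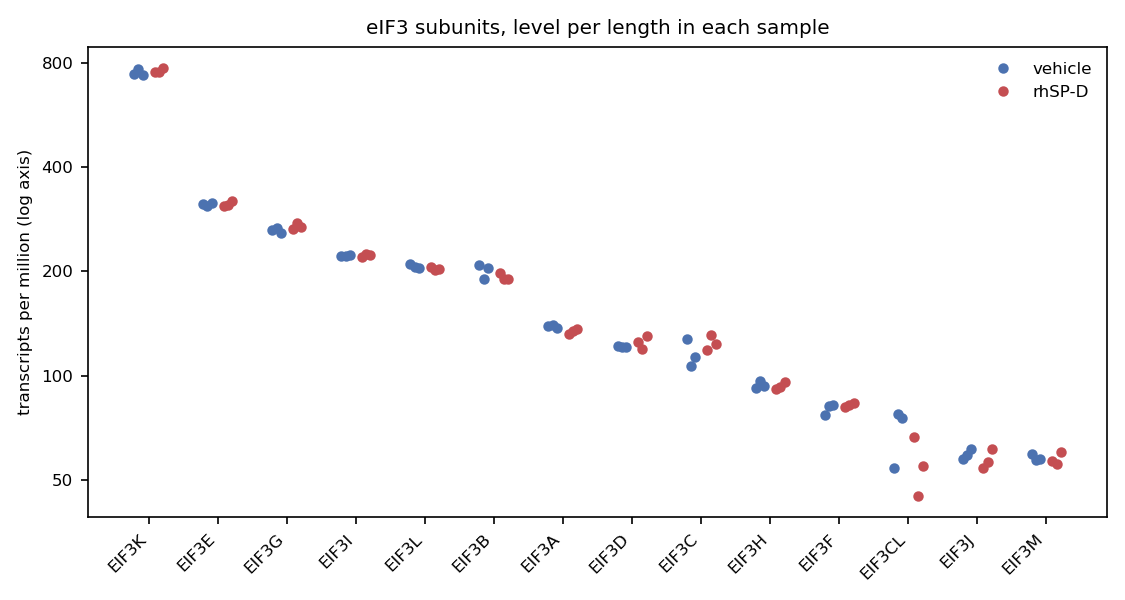
Level per length (y axis, TPM on a log scale) of the 14 eIF3 genes in the 3 vehicle (blue) and 3 rhSP-D (red) samples, ordered by the vehicle mean. EIF3K is highest near 747 TPM and EIF3M lowest near 58.1 TPM, and the scatter of EIF3C and EIF3CL is wider than that of their neighbours.

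The order of the eIF3 genes per length was read from the vehicle samples. EIF3K was highest (747 ± 15.2 TPM, SD, n = 3), followed by EIF3E (312 ± 2.44), EIF3G (263 ± 4.79), EIF3I (222 ± 0.981), EIF3L (207 ± 2.52) and EIF3B (201 ± 9.61), of which the last pair did not differ beyond their spread. EIF3J (59.4 ± 1.91) and EIF3M (58.1 ± 1.26) were lowest and also within their spread of each other. Lengths were those of the annotated principal transcripts. With the merged exons of all transcripts as the length EIF3K was still highest, at 391 TPM, but EIF3I followed at 318 TPM and EIF3F was lowest at 63.5 TPM, so the order depends on the length chosen.

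The eIF4 group binds the cap, unwinds the leader and, through PABPC1, joins the ends of the message. Here 13 of 14 genes were tested, and 4 rose and 1 fell (9.31% and 6.63% of all genes tested). The median log2 change was -0.00, with 6 of the 13 above 0. With library totals alone 2 rose and 3 fell, where 5.40% of all genes rose and 12.4% fell, and the median was -0.04. EIF4E1B had 0 counts in every library, where a count of 0 allows up to 3 counts per library. EIF4A1, the main helicase, went from 955, 962 and 960.3 CPM to 1057, 1041 and 1057 CPM (9.66%, 0.13 ± 0.02 on the log2 scale, adjusted p = 5.93e-07), and the groups were far apart relative to their ranges. Its paralogue EIF4A2 did not pass, at 198, 191 and 191 CPM in vehicle and 183, 180.5 and 187 CPM after rhSP-D (-0.07 ± 0.03 on the log2 scale, adjusted p = 0.0552). EIF4A2 passed without rhSP-D replicate 3 (log2 change -0.09, adjusted p = 0.0382). With all libraries it passed with library totals alone (-0.11, adjusted p = 0.00229) and with upper-quartile factors (-0.08, adjusted p = 0.0413). It also passed with a filter of 1 CPM and with near-identical copies summed. With length and GC offsets its sign turned (0.01, adjusted p = 0.893). Counts of EIF4A1 per count of EIF4A2 were 4.82, 5.03 and 5.03 in vehicle and 5.79, 5.77 and 5.64 after rhSP-D, without overlap. EIF4A3, the exon junction helicase, was at 106, 122 and 119 CPM in vehicle and 119.8, 132 and 132 CPM after rhSP-D and did not pass (0.13, adjusted p = 0.214). Its call depended on the processing: EIF4A3 passed without rhSP-D replicate 1 (log2 change 0.18, adjusted p = 0.0138), and with all libraries by the DESeq2 Wald test (0.14, adjusted p = 0.0425) or without the filter on low counts (0.13, adjusted p = 8.92e-04).

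EIF4E2, a cap-binding protein that competes with eIF4E and is known as a repressor, had one of the larger rises, from 51.9, 54.6 and 54.9 CPM to 60.8, 63.7 and 62.04 CPM (14.9%, 0.20 ± 0.04 on the log2 scale, adjusted p = 7.74e-04). EIF4E itself was at 46.99, 40.5 and 44.1 CPM and 40.4, 39.4 and 44.97 CPM, with overlapping groups and a 95% interval from -11.9% to 3.42% (adjusted p = 0.482). There were 1.105, 1.35 and 1.25 counts of EIF4E2 per count of EIF4E in vehicle and 1.51, 1.62 and 1.38 after rhSP-D. EIF4E3, a further relative, was at 34.6 and 34.7 CPM. Exons of EIF4E2 overlap exons of the opposite strand over 1735 bases, including the gene TIGD1, so without strand in the counting their reads cannot be separated.

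Of the eIF4G scaffolds, EIF4G2 was the 1 that changed. EIF4G2 encodes a shortened eIF4G without the part that binds eIF4E. Its level was 943, 933 and 946 CPM in vehicle and 885, 915 and 893 CPM after rhSP-D, so it fell by 4.56% with separate groups (-0.07 ± 0.02 on the log2 scale, adjusted p = 0.00601). EIF4G1, the main scaffold, was at 325, 323 and 325 CPM in vehicle and 323, 324 and 311 CPM after rhSP-D (interval -4.55% to 1.47%) and EIF4G3 at 61.9, 65.9 and 64.9 CPM in vehicle and 62.7, 63.96 and 61.4 CPM after rhSP-D (interval -8.04% to 2.80%), and neither passed (adjusted p = 0.536 and 0.555). The call of EIF4G2 was lost without rhSP-D replicate 1 (log2 change -0.06, adjusted p = 0.0528), and with offsets for length and GC content its sign turned (log2 change 0.03, adjusted p = 0.256). PABPC1, the poly(A)-binding protein, rose by 3.97% from a mean of 1604 CPM (0.06 ± 0.02 on the log2 scale, adjusted p = 0.0168), and EIF4H, a cofactor of the helicase, rose by 5.01% (0.07 ± 0.02 on the log2 scale, adjusted p = 0.0184). Without vehicle replicate 2, rhSP-D replicate 1 or rhSP-D replicate 3 the adjusted p was 0.0927, 0.0646 and 0.104 for PABPC1 (log2 changes 0.04, 0.06 and 0.04) and 0.119, 0.0627 and 0.0645 for EIF4H (0.05, 0.07 and 0.07), so both calls needed these libraries. EIF4B, another helicase cofactor, was at 699 and 714 CPM and EIF4ENIF1, the eIF4E transporter, at 16.8 and 16.1 CPM, and neither passed.

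EIF5A helps the ribosome through difficult stretches such as runs of proline and is known to carry hypusine. It was at 833, 836 and 827 CPM in vehicle and 909.6, 896 and 913 CPM after rhSP-D, a rise of 8.93% (0.12 ± 0.02 on the log2 scale, adjusted p = 3.30e-06) with separate groups, and with 1159.6 ± 5.08 TPM in vehicle it was among the more abundant members per length. EIF5A2, its paralogue, was scarce, at 13.1, 11.7 and 11.7 CPM in vehicle and 10.5, 9.38 and 13.1 CPM after rhSP-D, and its interval ran from -21.6% to 5.87% (adjusted p = 0.449). EIF5AL1, an intronless copy similar to EIF5A, was counted 25, 42 and 46 times in the vehicle libraries and 76, 62 and 75 times in the treated ones (0.56 ± 0.20 on the log2 scale, adjusted p = 0.0474), the largest percentage rise of any member and one of the least precise. It lost its call when any 1 library was left out (log2 change 0.47 to 0.65, adjusted p = 0.0507 to 0.168), and its reads can come from EIF5A. DHPS, the first enzyme of hypusine synthesis and no member itself, rose by 15.1% (0.20 ± 0.04 on the log2 scale, adjusted p = 8.03e-04), and DOHH, the second, was at a log2 change of 0.11 (adjusted p = 0.277).

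Members on the textbook TOP list rose more often than the others, by count. Of the 11 TOP members 9 rose and none fell, and all 11 were above 0, with a median log2 change of 0.10. Of the 45 other tested members 14 rose and 2 fell, with a median of 0.06. EEF1A1, EEF1B2, EEF1D, EEF1G, EEF2 and TPT1 are also in the elongation factor list above, so the 2 results share these genes. Of the TOP members outside that list, PABPC1, EIF3E and EIF3F rose, at log2 changes of 0.06, 0.08 and 0.11. EIF4B (0.03) and EIF3H (0.07) were the TOP members that did not pass. EEF1A2, an elongation factor off the TOP list, rose by 0.20. A list of 7 further TOP transcripts that encode neither factors nor ribosomal proteins had 7 of 7 higher, with a median of 0.10, led by GNB2L1 (now named RACK1), a ribosome-bound scaffold (0.17 ± 0.02 on the log2 scale, adjusted p = 4.57e-09), and BTF3, a nascent chain factor (0.14 ± 0.02 on the log2 scale, adjusted p = 5.58e-06). Over all genes tested 9.31% were higher. With library totals alone 6 of 11 TOP members rose and 10 were above 0, and of the others 9 rose and 4 fell. In that setting 5.40% of all genes rose and 12.4% fell. All 11 TOP members were abundant, with vehicle means of 188 CPM (EIF3F) or more, while the others reached down to 2.26 CPM (EIF5AL1). Small changes pass more readily in abundant genes, so these counts also depend on level. The difference between the TOP members and the others was not tested.

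**Figure D4:**
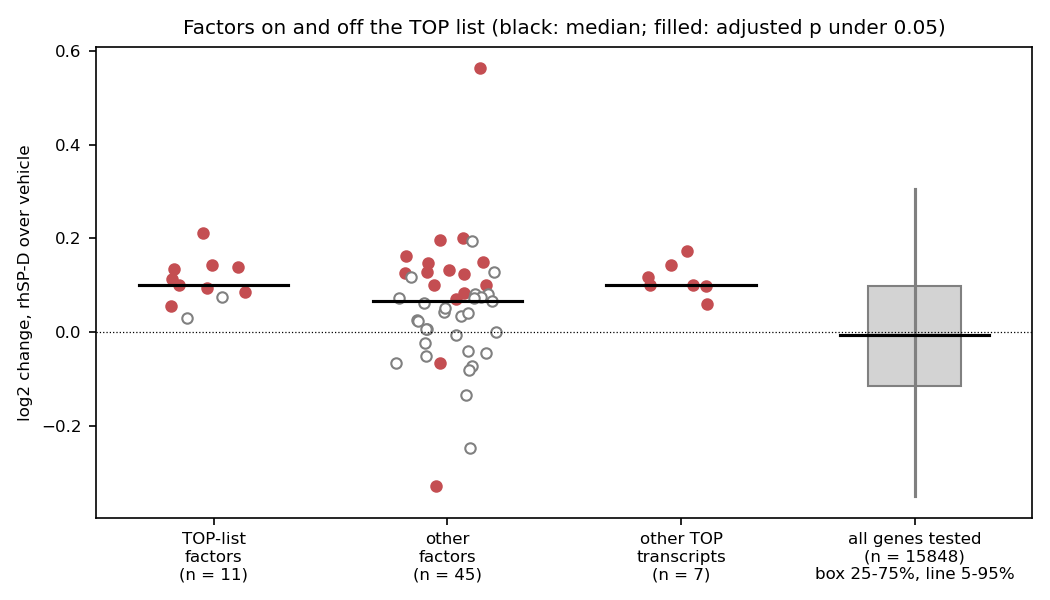
Log2 change (y axis, rhSP-D over vehicle) of the 11 TOP-list factors, the 45 other tested factors and 7 other TOP transcripts, with filled points for an adjusted p under 0.05 and black lines for medians, beside the distribution of all 15848 genes tested. All TOP-list points lie above 0 with TMM scaling, whereas the other factors range from -0.33 to 0.56.

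The pattern at the annotated starts could be read for 7 of the 11 TOP members, and 6 of them held it at 1 or more starts. Of the members with the pattern 8 of 17 rose and 1 fell (median log2 change 0.07). Of the tested members whose given promoters lack it 9 of 29 rose and 1 fell (median 0.07). Across the 10349 tested genes with a promoter 14% of those with the pattern rose and 9.67% of those without it. Genes whose symbol is RPL or RPS followed by a digit were then set apart among those with the pattern. This set takes in ribosomal protein genes, but its rule also matches S6 kinase genes such as RPS6KB1. In the set 48 of 51 with the pattern rose, while 277 genes with the pattern rose in all. The genes without the pattern were not divided in this way. Among the 1911 genes with the pattern that were neither in the set nor members 221 (11.6%) rose and 136 fell. Of the genes printed above with a run, EEF1A1, EEF1B2, EEF2, TPT1, EIF3F, EIF3D and EIF3K rose. EIF4B, EIF2S3 and EIF4A2 also hold a run and did not pass. Of those printed without a marked run, EEF1G, EIF4A1 and EIF1 rose, EIF4E did not pass and EIF5 fell.

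The members together held 2.68%, 2.69% and 2.67% of all counts in vehicle and 2.76%, 2.77% and 2.79% after rhSP-D. The TOP members held 1.74%, 1.76% and 1.73% in vehicle and 1.81%, 1.82% and 1.83% after rhSP-D, and EEF1A1 alone 0.799 ± 0.006% and 0.828 ± 0.005% (SD, n = 3). As a share of TPM, where length also enters, the gap was smaller. TMM factors enter neither kind of share. The members held 2.143%, 2.142% and 2.131% of TPM in vehicle and 2.154%, 2.160% and 2.178% after rhSP-D. In each of these sums the 3 rhSP-D libraries were above the 3 vehicle libraries. With 3 samples against 3 the smallest p of an exact permutation test is 0.10, so no test was made on the shares.

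Offsets for gene length and transcript GC content, fitted in each library, changed which factors passed. With the offsets 27 members rose and 1 fell, where 8.28% of all genes rose and 2.80% fell, and 20 of the 25 calls were shared. The 5 calls lost were EIF4G2, EIF4H, EIF3G, EIF3I and EIF6. The 8 gained, all higher, were EIF4B, EIF3A, EIF3H, EIF3L, EIF3M, EIF2A, EIF1AX and EIF2D. All 11 TOP members then passed, with a median log2 change of 0.15, against 0.07 for the 45 others. EIF5 remained lower (log2 change -0.23), TPT1 went from 0.13 to 0.21 and EIF5A from 0.12 to 0.06.

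**Figure D5:**
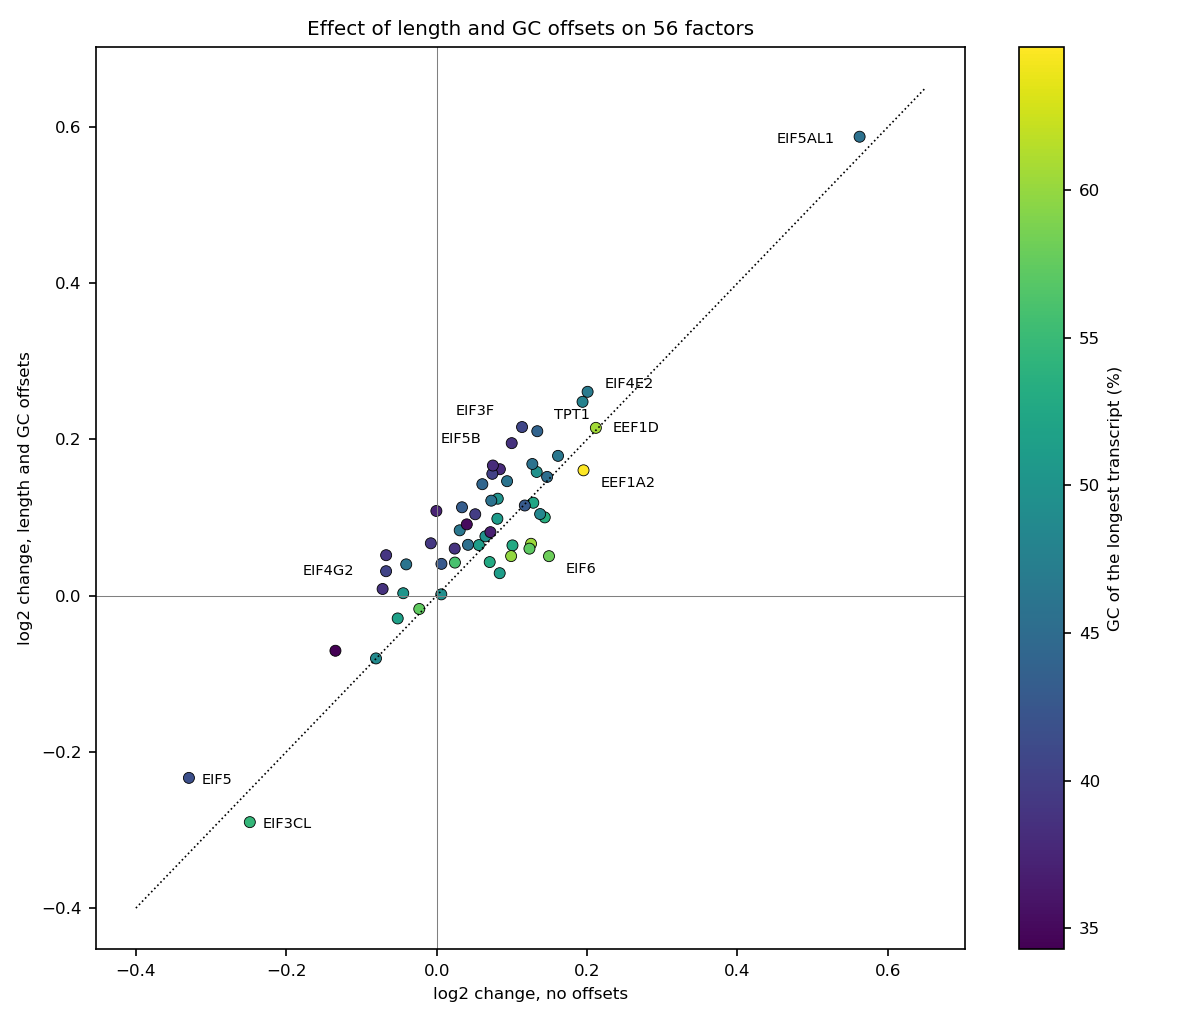
Log2 change of the 56 tested factors without (x axis) and with (y axis) offsets for gene length and GC content, coloured by transcript GC, with the dotted line marking equal values. EIF6 lies below the line (0.15 without and 0.05 with the offsets), EIF5B above it (0.10 and 0.20), and EEF1D, also rich in GC, close to it (both 0.21).

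The wider translation pathway was read from lists that do not overlap the members, and over all genes tested 9.31% rose and 6.63% fell. Of 8 eIF2 kinase and stress response genes ATF4 rose (0.11 ± 0.02 on the log2 scale, adjusted p = 9.37e-05) and EIF2AK2, the kinase activated by double-stranded RNA, fell (-0.21 ± 0.04 on the log2 scale, adjusted p = 7.39e-04), and the other 6 did not pass. Of the eIF4E-binding proteins EIF4EBP1 went from 197, 199.8 and 193 CPM to 227, 225 and 223 CPM (14.6% higher, 0.20 ± 0.02 on the log2 scale, adjusted p = 7.62e-07), EIF4EBP2 did not pass (adjusted p = 0.672) and EIF4EBP3 was too scarce to test. Among 14 genes of mTORC1 and its outputs 3 rose and 1 fell: AKT1S1, an inhibitory subunit (0.13 ± 0.03 on the log2 scale, adjusted p = 0.00121), RHEB, the activating GTPase (0.10 ± 0.03 on the log2 scale, adjusted p = 0.0166), and RPS6KB2 rose, and MTOR, the kinase itself, fell (-0.13 ± 0.04 on the log2 scale, adjusted p = 0.0363). LARP1 was at a log2 change of -0.06 (adjusted p = 0.0807).

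Of 5 tested poly(A)-binding protein relatives and partners 2 rose: PABPN1, the nuclear poly(A)-binding protein (0.14 ± 0.03 on the log2 scale, adjusted p = 3.52e-04), and PAIP2, an inhibitor of PABPC1 (0.16 ± 0.04 on the log2 scale, adjusted p = 0.00182). Of 8 genes of termination, recycling and rescue 1 rose, PELO, a ribosome rescue factor (0.17 ± 0.04 on the log2 scale, adjusted p = 0.0102), and the recycling ATPase ABCE1 was at a log2 change of -0.10 without passing (adjusted p = 0.0807). Mitochondrial translation factors had 2 of 9 higher, the elongation factors TUFM (0.12 ± 0.02 on the log2 scale, adjusted p = 1.37e-04) and TSFM (0.13 ± 0.04 on the log2 scale, adjusted p = 0.0385). Of 5 genes of selenocysteine incorporation the elongation factor EEFSEC rose (0.21 ± 0.07 on the log2 scale, adjusted p = 0.0419), while SEPSECS was at -0.14 (adjusted p = 0.560). None of the genes of these 4 lists fell.

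Reads of several members could be shared with other loci. The dropped pseudogene rows held counts equal to 0.990% of those of EEF1A1 (38 rows), 4.01% of EIF3F, 1.06% of EIF2S2 and 0.551% of EIF4B, and under 0.6% for each other member with such rows. Adding them to the parents left 23 members higher and 2 lower. Of the 58 members 30 have exons that overlap exons of the opposite strand in GENCODE 29, among them EEF1D over 3195 bases and TPT1 over 614 bases, and without strand in the counting their reads cannot be separated from those of the partner. The annotated transcripts of TPT1 run from 764 to 4814 nt and those of EIF4E from 898 to 11523 nt, so levels per length of those genes are not printed here.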

How the data were processed

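RNA of 6 A549 samples, 3 per group, was measured by poly(A)-selected RNA sequencing. The authors deposited a table of raw read counts per gene symbol. The submitters' processing notes name cutadapt, STAR 2.7.0a, featureCounts 2.0.0 and GRCh38 (hg38). For the annotation release, strand and multiply mapped reads, no setting is given in the sources used.

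The counts were fitted with edgeR 4.0.16 in R 4.3.3: filterByExpr with a minimum count of 10, TMM factors, a robust quasi-likelihood fit over all 15848 genes tested and Benjamini-Hochberg adjustment over all of them, with 0.05 as the threshold. The biological coefficient of variation was 2.51%. The groups came from the labels. CPM used TMM-scaled totals, and TPM used the lengths of principal transcripts of GENCODE 29. Percent changes and their 95% intervals come from the fit. Total counts per library, from 11396193 to 26030880, set the precision of scarce members. In simulated data with 15666 genes, 50 genes were changed at each size. The fit found 2% at 1.05-fold, 16% at 1.1-fold, 46% at 1.2-fold and 70% at 1.5-fold, with 1 false call. The changed genes were drawn at random over all levels, so these rates do not describe the abundant members. The simulated libraries were independent, which is not known of the real ones.

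Every member was counted, and members were described by role lists and by a textbook TOP list. The members and lists were chosen with earlier results of these data known. Alternatives were other scaling factors, filters, tests (DESeq2 1.42.0, limma 3.58.1), a stricter threshold, a replicate block, length and GC offsets, thinning, pseudogene counts added to their parents and each library left out. Summing near-identical copies was chosen after seeing the data.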

Additional observations from a re-analysis of the deposited data

How the results depend on the processing

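With library totals alone, 17 of the 25 calls of members were shared, against 20 with length and GC offsets and 25 with DESeq2 size factors or upper-quartile factors. With those totals 15 members were higher and 4 lower, with a median log2 change of 0.032, and EIF2S3 was at -0.035. With length and GC offsets 1 member was lower, and the sign turned, without passing, for EIF4G2 (0.031), EEF2K (0.0031), EIF4A2 (0.0086), EIF4G3 (0.040) and EIF4E (0.052). The causes were not tested. The count over all genes was 1534 with the DESeq2 Wald test and 1465 at an adjusted p under 0.01, against 2526.

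Leaving out 1 library at a time gave 16 to 22 members higher, 1 to 3 lower, a median of 0.06 to 0.08 and 1678 to 2182 genes over all, lowest without rhSP-D replicate 1, where 1 member was lower. EIF2S3 ranged from -0.0084 (without vehicle replicate 3) to 0.018 and was also below 0 without rhSP-D replicate 1 (-0.0024) or rhSP-D replicate 3 (-0.00026), and EEF2K ranged from -0.095 to 0.0095 (without vehicle replicate 3). Of 519 values of named members under these settings 476 kept their direction and side of the threshold, 22 lost a call, 6 gained one and 15 changed sign.

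No shared effect of the replicate number was visible: deviations of same-numbered libraries correlated at -0.08, -0.07 and 0.03. With 3 libraries per group these values cannot show whether the samples were handled in pairs. With the replicate block 23 members were higher and 2 lower, and 2319 genes changed over all. The block shared 24 of the 25 calls: EIF5AL1 lost its call (0.57, adjusted p = 0.0597) and EIF4A3 gained one (0.14, adjusted p = 0.00208). With the block and the length and GC offsets 1503 genes changed, 1 member was lower, and EIF4G2 (0.031), EEF2K (0.0014), EIF4A2 (0.0063), EIF4G3 (0.043) and EIF4E (0.048) changed sign. Summing near-identical copies, chosen after seeing the data, gave 22 higher and 3 lower. Scarce members such as EIF5AL1 and EIF5A2 are limited by depth.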
